A study of Homo sapiens with 24 samples.

Results

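The messenger RNAs of the microRNA (miRNA) silencing machinery were followed through the expression of 7 miRNAs in human cells. The members were 10 genes chosen by name out of the 29794 genes of the count tables: the Argonautes AGO1, AGO2, AGO3 and AGO4, the scaffold proteins TNRC6A, TNRC6B and TNRC6C, and the processing genes DICER1, DROSHA and DGCR8. Each comparison asked whether a member's mRNA level responded to an added miRNA. PolyA RNA was sequenced from Flp-In T-REx 293 cells, derived from the human embryonic kidney line HEK293, which carried a lentiviral GFP cassette with a miRNA hairpin in its intron, or the same cassette without a hairpin (empty vector). All cells, the empty vector cells included, had been selected in 1 mg/mL Geneticin for 6 days and then received 1 µg/mL doxycycline for 7 days. Batch 1 held the groups empty vector, miR-1 and miR-122 with 2 libraries each, and batch 2 held the empty vector, miR-133a and miR-155 as well as miR-302a, miR-373 and miR-372, which share one seed, with 3 libraries for each group. Replicates were transduced and kept as separate cultures of one cell line, and each miRNA was compared only with the empty vector of its own batch, so that the miRNAs of a batch share their control libraries. The levels of the miRNAs themselves were not analysed here.

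A miRNA is cut out of its primary transcript by the Microprocessor, in which DROSHA is the nuclease and DGCR8 the RNA-binding partner, and the exported hairpin is cut again by DICER1. One strand is then loaded into an Argonaute protein, which pairs bases 2 to 8 of the miRNA, the seed, with sites mostly in 3′UTRs, and a TNRC6 (GW182) protein bound to the Argonaute recruits deadenylases that shorten and destabilise the target mRNA. Several of these genes are known to be targets of miRNAs themselves, and AGO2 is the Argonaute with slicing activity.

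The mature miRNAs are shown 5′ to 3′ because their seeds decide which sites were searched for in the members; the seed is in capitals, and the sequences are those of RefSeq (GRCh38.p14).
hsa-miR-1-3p: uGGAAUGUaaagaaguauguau
hsa-miR-122-5p: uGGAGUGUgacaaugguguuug
hsa-miR-133a-3p: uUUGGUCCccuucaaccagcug
hsa-miR-155-5p: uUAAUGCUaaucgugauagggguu
hsa-miR-302a-3p: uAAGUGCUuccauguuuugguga
hsa-miR-372-3p: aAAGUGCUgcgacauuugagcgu
hsa-miR-373-3p: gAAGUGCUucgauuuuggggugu
The last 3 share one seed, and the seeds of miR-1 and miR-122 are alike except for a single base. A site was an exact match in the longest annotated 3′UTR on GRCh37: to bases 2 to 8 followed by an A (8mer), to bases 2 to 8 (7mer-m8), or to bases 2 to 7 followed by an A (7mer-A1).

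A site of each called member that holds one, apart from AGO2, and the 8mers follow in the same direction with the match in capitals. The 7mer-m8 lines end with the base after the match, and the 8mer lines end with the match.
DICER1, miR-122, 7mer-m8: tagaatgacctctaACACTCCt
TNRC6A, miR-122, 7mer-m8: tatctactctatttACACTCCc
AGO1, miR-122, 8mer: agagagtgatgctaACACTCCA
AGO1, miR-133a, 8mer: gccctgaccccactGGACCAAA
AGO3, miR-1, 8mer: gtttgtttcctttgACATTCCA
TNRC6B, miR-1, 7mer-m8: ctgaggcggccattACATTCCc
AGO4, miR-155, 8mer: aaatgcctttaatgAGCATTAA
On GRCh37 the matches lie at chr14:95553624-95553630 on the minus strand (DICER1) and, on the plus strand, at chr16:24835334-24835340 (TNRC6A), chr1:36387509-36387516 and chr1:36385465-36385472 (AGO1, miR-122 and miR-133a), chr1:36533605-36533612 (AGO3), chr22:40727193-40727199 (TNRC6B) and chr1:36319724-36319731 (AGO4), all in 3′UTRs.

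All 10 members passed the filter on low counts in both batches, with between 246 reads (AGO2) and 6676 reads (DROSHA) in a library. Levels below are CPM, reads of the gene relative to the library total scaled by TMM factors, and levels compared between genes are CPM per kilobase of counted exon. In empty vector cells the means per kilobase had the same order in both batches for all 10 members. Some neighbours in this order did not differ beyond their spread. DROSHA was highest with 36.8 ± 1.59 CPM per kilobase in batch 1 (SD, n = 2) and 36.97 ± 0.720 in batch 2 (SD, n = 3). DGCR8 followed with 25.0 ± 0.401 and 24.4 ± 0.412, and these do not overlap with DROSHA or with DICER1, at 18.4 ± 1.45 and 16.6 ± 0.756. TNRC6A came next with 16.9 ± 0.440 and 14.3 ± 1.52, and the intervals of mean ± SD of TNRC6A and DICER1 overlapped in batch 1 and nearly met in batch 2.

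Among the Argonautes, AGO2 had 12.6 ± 2.93 CPM per kilobase in batch 1 and 9.97 ± 2.47 in batch 2, and AGO1 had 10.1 ± 0.813 and 9.78 ± 0.946, so that these neighbours did not differ beyond their spread. AGO4 was lower at 6.98 ± 0.288 and 6.82 ± 0.0578, and AGO3 was lowest at 2.57 ± 0.130 and 2.65 ± 0.152. This order depends on the counted exon length, which was 3664 bases for AGO2, 12886 for AGO1, 7116 for AGO4 and 20866 for AGO3. The annotated 3′UTR of AGO2 alone has 11888 bases, so most of it was not counted. AGO2 varied most between replicates, while AGO4 was nearly constant among the batch 2 controls. TNRC6B (3.98 ± 0.620 and 3.84 ± 0.641) and TNRC6C (4.05 ± 0.353 and 4.18 ± 0.487) did not differ from each other beyond their spread, and both lay well under TNRC6A. AGO1, AGO3 and AGO4 lie in a row on chromosome 1 in the order AGO4, AGO1, AGO3, with 11917 and 185 bases between them, and their levels per kilobase were nonetheless separated in every empty vector library.

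**Figure D1:**
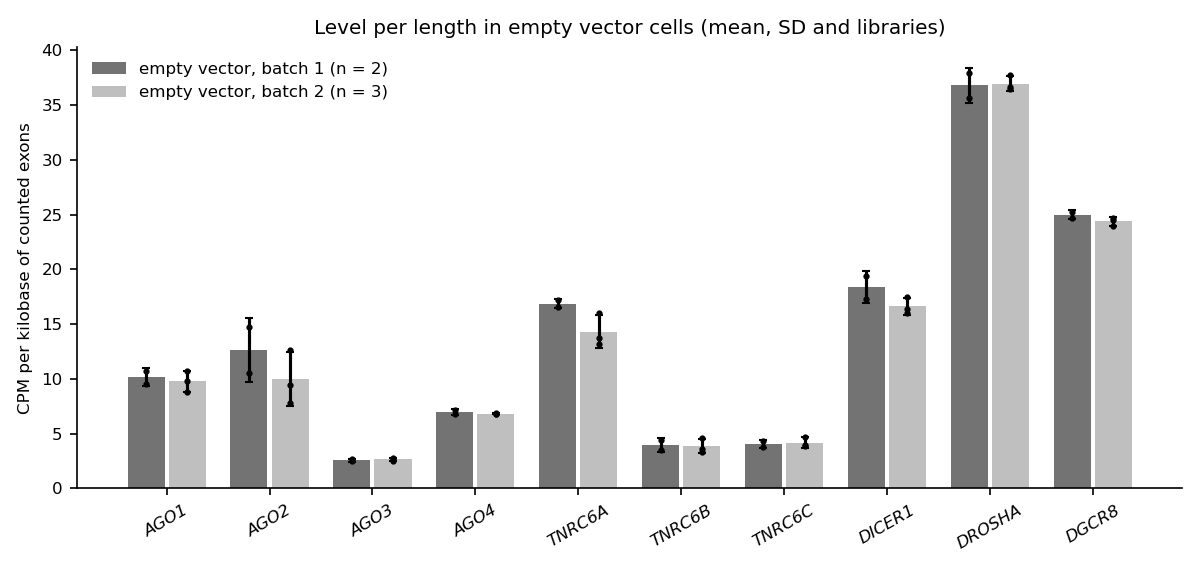
Bars give the mean CPM per kilobase of counted exon in empty vector cells for each member, error bars the SD and dots the libraries (2 in batch 1, 3 in batch 2). DROSHA is highest, at 36.8 and 36.97, and AGO3 lowest, at 2.57 and 2.65.

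The batch 1 libraries held 20153452 to 21595191 counted reads, and those of batch 2 from 13047400 up to 35040778. Libraries differed in how counts depended on transcript length: the slope of log2 CPM deviation on log2 exon length ran from -0.022 to 0.036 in batch 1 and from -0.12 to 0.092 in batch 2, where all 3 empty vector libraries (0.047 to 0.092) were above every miRNA library, the nearest of which (miR-372 replicate 3) had 0.046. A fit with the slope as a covariate therefore cannot fully separate slope and empty vector in batch 2, and its values are given there as a description. The lowest slopes were those of miR-155 replicate 2 and miR-372 replicate 2 (-0.120 and -0.116), and the slope is given beside the results it moved with. Of the markers of HEK293 cells, VIM (917 to 1290 CPM), CDH2 (82.2 to 120 CPM), PAX2 (5.17 to 13.9 CPM) and NEFM (1.25 to 4.41 CPM) were detected in every library. PTPRC, ALB and MYOG, which mark leukocytes, hepatocytes and muscle, had at most 5 reads in any library, MYOD1 at most 19, and CDH1, of epithelia, 8.61 to 25.0 CPM.

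Across the 70 tests of a member against its empty vector, 3 were called higher and 3 lower (edgeR quasi-likelihood test, Benjamini-Hochberg adjusted p under 0.05 over all genes). With miR-1, TNRC6B, AGO3 and DGCR8 rose and none fell, where 10.8% of the 14348 genes tested rose and 13.7% fell (24.5% in either direction). With miR-122, DICER1, AGO2 and TNRC6A fell and none rose, where 4.06% of genes fell and 1.86% rose (5.92% in either direction). In batch 2 edgeR called 0 members against the empty vector for every miRNA, and DESeq2 also called 0. Of the 14054 genes tested there, 5.34% were called in either direction with miR-133a, 7.63% with miR-155, 7.88% with miR-302a, 11.4% with miR-372 and 5.13% with miR-373. The members with an unadjusted edgeR p under 0.05 numbered 2 with miR-133a, 4 with miR-155, 1 with miR-302a, 3 with miR-372 and 0 with miR-373. Every library of the miRNA was below every control for 2 members with miR-133a (17.9% of genes), 4 with miR-155 (16.2%), 2 with miR-302a (15.2%), 2 with miR-372 (15.9%) and 0 with miR-373 (14.3%). A test of any difference among the groups of a batch called 7 of 10 members in batch 1, where 34.1% of genes were called, and 0 of 10 in batch 2, where 26.6% were called, with AGO1 nearest the threshold in batch 2 (edgeR adjusted p = 0.13).

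**Figure D2:**
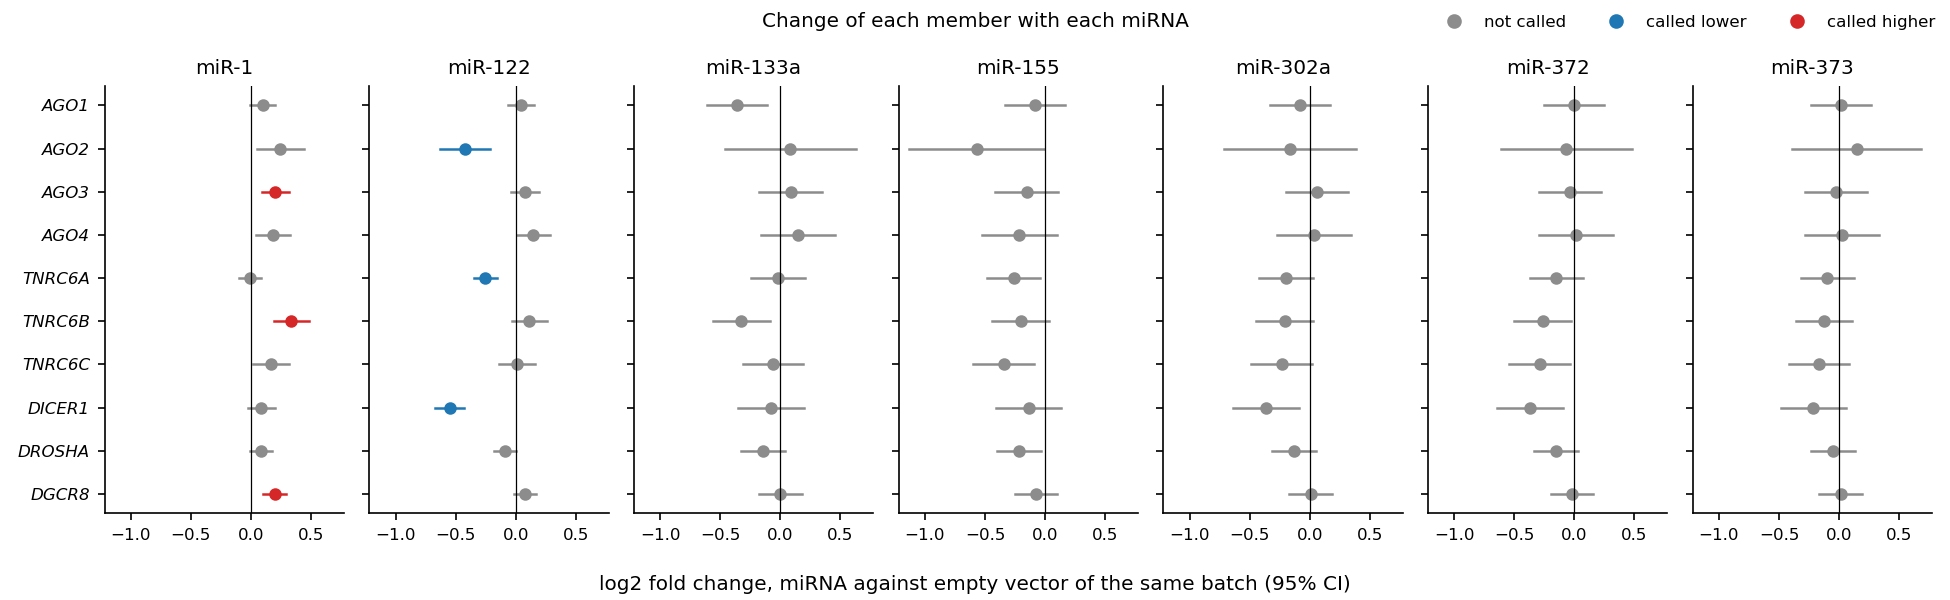
Points give the log2 fold change of each member against the empty vector of its batch, lines its 95% confidence interval, and colour the call (edgeR, adjusted p under 0.05). The called changes stand in the miR-1 column (AGO3, TNRC6B and DGCR8 higher) and the miR-122 column (AGO2, TNRC6A and DICER1 lower), and intervals are wider in batch 2.

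AGO2 was the Argonaute that fell with miR-122. It stood at 53.9 and 38.7 CPM with the empty vector, at 52.5 and 56.9 CPM with miR-1, and at 33.7 and 35.4 CPM with miR-122. Both miR-122 libraries were below both controls, while the miR-1 libraries overlapped with the higher control. With miR-122 the level was 0.747 of the control (log2 fold change -0.42, 95% CI -0.63 to -0.21; edgeR adjusted p = 0.014), and its value with miR-1 missed the threshold (0.24, 95% CI 0.045 to 0.44; edgeR adjusted p = 0.067). In bulk RNA, less mRNA per cell and fewer cells with the mRNA cannot be told apart. Without empty vector replicate 1, which had the higher length slope (0.036 against -0.0070 in replicate 2), AGO2 was at -0.16 with miR-122 (edgeR adjusted p = 0.24; the call was lost in 3 of the 4 fits without a library, with the length slope as a covariate at -0.17, and with DESeq2, adjusted p = 0.35) and at 0.50 with miR-1 (edgeR adjusted p = 1.0e-07). The fold change of miR-122 against miR-1 does not use the levels of these controls, although its spread was estimated over all groups of the batch. There AGO2 was 0.66 lower on the log2 scale (-0.66, 95% CI -0.87 to -0.46; edgeR adjusted p = 4.1e-05).

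The 3′UTR of AGO2 is annotated with 11888 bases and holds 1 7mer-m8 for miR-122, at base 3439, while the exons counted for the gene sum to 3664 bases, fewer than this 3′UTR alone.

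In batch 2 AGO2 had the widest 95% intervals of the log2 fold change among the members. It stood at 28.6, 46.4 and 34.6 CPM with the empty vector and at 30.7, 18.8 and 24.2 CPM with miR-155. All 3 miR-155 libraries were under the middle control, but the highest of them was above the lowest control. The log2 fold change was -0.57 (95% CI -1.13 to -0.012; edgeR adjusted p = 0.20), the most negative of any member in the series, and it was not called. With the length slope of each library in the fit it was 0.092, and the 2 lowest AGO2 levels of the series, 18.8 and 19.9 CPM, were in the libraries with the lowest slopes, miR-155 replicate 2 and miR-372 replicate 2. For the other miRNAs of batch 2 the log2 fold change of AGO2 lay between -0.16 and 0.15 with intervals reaching at least 0.38 on the positive side, so that changes of that size were not detectable here. With the slope as a covariate AGO2 was called higher with miR-133a (0.54), miR-372 (0.49) and miR-373 (0.45), and the sign turned from negative to positive for miR-155, miR-302a (0.39) and miR-372. In batch 2 this fit cannot tell the slope from the empty vector, and no conclusion is drawn from these calls.

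**Figure D3:**
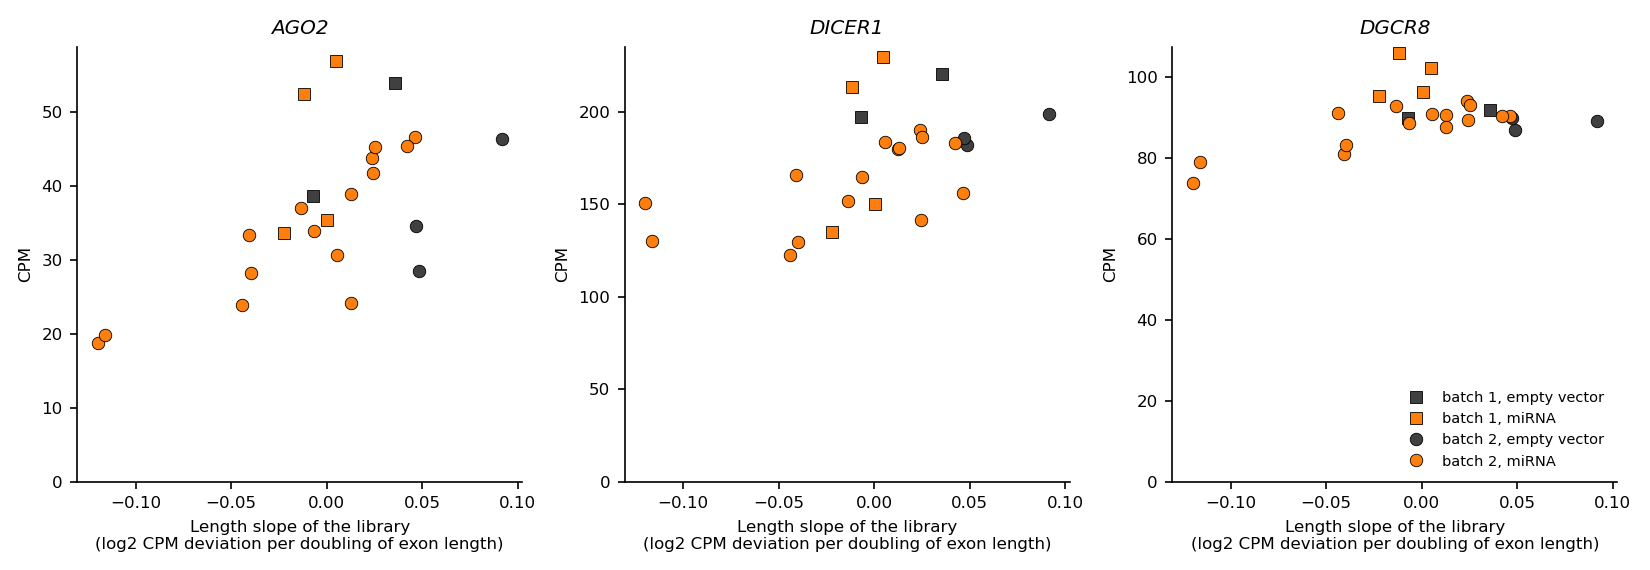
Each point is a library, with its length slope (log2 CPM deviation per doubling of exon length) on the x axis and the CPM of AGO2, DICER1 or DGCR8 on the y axis, squares for batch 1 and circles for batch 2. The libraries with slopes of -0.120 and -0.116 hold the lowest AGO2 levels, 18.8 and 19.9 CPM, and the batch 2 controls sit at the right of their batch.

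AGO1, the most abundant Argonaute by reads, was little different in batch 1 (log2 fold change 0.098 with miR-1 and 0.043 with miR-122, neither called), and it holds an 8mer for miR-122. With miR-133a it stood at 106, 90.0 and 97.8 CPM, against 114, 138 and 127 CPM with the empty vector. All 3 miR-133a libraries were below all 3 controls, as for 17.9% of the genes tested. Its log2 fold change was -0.36 (95% CI -0.61 to -0.11; edgeR adjusted p = 0.087), which missed the threshold and was -0.17 with the length slope as a covariate (edgeR adjusted p = 0.13). It was called in 3 of 9 alternatives, with edgeR adjusted p from 0.0038 to 0.13. The 8mer for miR-133a starts at base 257 of its 3′UTR of 10925 bases. Against other miRNAs of the batch, AGO1 was called lower with miR-133a than with miR-372 (0.36 higher with miR-372, 95% CI 0.11 to 0.61; edgeR adjusted p = 0.049) and than with miR-373 (0.38 higher with miR-373, 95% CI 0.13 to 0.63; edgeR adjusted p = 0.042), where 14.1% and 12.6% of genes were called. With the replicate number as a block they were 0.36 and 0.38 (edgeR adjusted p = 0.042 and 0.032). Both calls were lost when any miR-133a library was left out (edgeR adjusted p between 0.052 and 0.17), and the one with miR-372 also without miR-372 replicate 3 (0.27, edgeR adjusted p = 0.19), so that 10 and 6 of the 15 fits without a library lost them. Its differences of miR-155 and miR-302a from miR-133a (0.28 each) were not called, where 16.7% and 12.6% of genes were. Of the summed CPM per kilobase of the 4 Argonautes, AGO1 made up 26.7% ± 0.334 with miR-133a and 33.5% ± 0.845 with the empty vector (SD, n = 3). This share depends on the counted exon lengths, and no test was run for it.

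AGO3 rose with miR-1: it stood at 60.9 and 62.5 CPM, against 55.6 and 51.7 CPM in the controls. The groups did not overlap, as for 29.7% of genes in this direction. The log2 fold change was 0.20 (95% CI 0.090 to 0.31; edgeR adjusted p = 0.0098), and the call was lost without empty vector replicate 2 (edgeR adjusted p = 0.064), without miR-1 replicate 2 (edgeR adjusted p = 0.076) and with DESeq2 (adjusted p = 0.059). AGO3 holds the only 8mer for miR-1 among the members, at base 12259 of a 3′UTR of 16755 bases. AGO4, its neighbour on the chromosome, was at 51.7 and 61.0 CPM with miR-1 and at 51.1 and 48.2 CPM in the controls, just missing the threshold (0.18, 95% CI 0.044 to 0.32; edgeR adjusted p = 0.051). It was called in 5 of 8 alternatives with every library (adjusted p from 0.00049 with edgeR to 0.16 with DESeq2) and in 2 of 4 fits without a library. In batch 2 neither gene had a log2 fold change beyond -0.22 (AGO4 with miR-155, edgeR adjusted p = 0.40). AGO4 holds an 8mer for miR-155, and its levels of 44.9, 33.2 and 47.2 CPM with miR-155 were below the controls at 48.2, 48.4 and 49.0 CPM. Its log2 fold change with miR-155 was 0.022 with the length slope as a covariate and -0.077 without miR-155 replicate 2. In the fit with the replicate number as a block, AGO4 was called lower with miR-155 than with miR-133a (-0.37, edgeR adjusted p = 0.014, where 21.7% of genes were called), and without the block it was not (edgeR adjusted p = 0.10).

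The TNRC6 scaffolds, which link Argonautes to the deadenylases, differed in which was called in batch 1. TNRC6B rose with miR-1, to 95.9 and 98.7 CPM from 85.6 and 68.6 CPM, and had the largest increase of any member. Both miR-1 libraries were above both controls. The log2 fold change was 0.34 (95% CI 0.19 to 0.48; edgeR adjusted p = 0.0016). It was called whichever library was left out, with values between 0.19 and 0.50, and not called by DESeq2 (adjusted p = 0.063). TNRC6A was level with miR-1 (146 and 142 CPM against 148 and 142 CPM; log2 fold change -0.011, 95% CI -0.10 to 0.082) and fell with miR-122.

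With miR-122, TNRC6A stood at 118 and 125 CPM, below both controls. The log2 fold change was -0.25 (95% CI -0.35 to -0.16; edgeR adjusted p = 0.0011). The call was lost without miR-122 replicate 1 (edgeR adjusted p = 0.075) and held in all 8 alternatives that kept every library. The miR-122 match of TNRC6A, the only match to any of the 7 miRNAs in its 3′UTR, starts at base 206 of 2414 bases. TNRC6B, with 3 matches to miR-122 in a 3′UTR of 12567 bases, was at 80.6 and 86.2 CPM (0.11, 95% CI -0.033 to 0.26, not called), and TNRC6C was at 0.012. Without empty vector replicate 1, TNRC6B was called higher with miR-122 (0.28, edgeR adjusted p = 0.00054). Of the summed CPM per kilobase of the TNRC6 genes, TNRC6A made up 67.8% ± 2.08 with the empty vector and 62.8% ± 0.596 with miR-122 (SD, n = 2).

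In batch 2 the TNRC6 genes were on the low side of the control without being called. TNRC6C stood at 33.9, 28.4 and 36.3 CPM with miR-155, against 38.6, 47.3 and 39.3 CPM with the empty vector, all 3 libraries below all controls, as for 16.2% of genes. Its log2 fold change was -0.34 (95% CI -0.60 to -0.091; edgeR adjusted p = 0.089). TNRC6B stood at 67.6, 57.8 and 53.3 CPM with miR-133a, against 70.3, 88.4 and 64.7 CPM, and the highest of the former was above the lowest control (log2 fold change -0.32, 95% CI -0.56 to -0.085; edgeR adjusted p = 0.11). TNRC6A with miR-155 was at -0.26 (edgeR adjusted p = 0.14). The batch 2 controls also had the highest length slopes, so that slope and empty vector cannot be told apart. The slope's part in these values was not tested. In the fit with the slope as a covariate TNRC6C with miR-155 was at -0.078, TNRC6A with miR-155 at -0.11 and TNRC6B with miR-133a at -0.20, none of them called.

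DICER1, the nuclease that releases the miRNA duplex, had the largest called change of any member. It stood at 135 and 150 CPM with miR-122, against 220 and 197 CPM with the empty vector and 214 and 230 CPM with miR-1. The miR-122 libraries lay well below the other 4 libraries of the batch. The level was 0.683 of the control (log2 fold change -0.55, 95% CI -0.67 to -0.43; edgeR adjusted p = 1.6e-06), and 0.64 lower on the log2 scale than with miR-1 (-0.64, 95% CI -0.75 to -0.52; edgeR adjusted p = 5.9e-08). It was called in all 8 alternatives with every library and whichever library was left out, with values between -0.63 and -0.43. The match to miR-122 starts at base 3205 of a 3′UTR of 4270 bases. DICER1 also holds a 7mer-m8 for miR-1, at base 724, and was not called with miR-1 (0.087, 95% CI -0.029 to 0.20; edgeR adjusted p = 0.27).

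With the miRNAs that share the AAGUGCU seed, DICER1 was lower than the control on average. It stood at 123, 187 and 130 CPM with miR-302a, at 152, 130 and 156 CPM with miR-372 and at 165, 183 and 142 CPM with miR-373, against 182, 199 and 186 CPM with the empty vector. Every miR-372 library was below every control (as for 15.9% of genes), while miR-302a replicate 2 and miR-373 replicate 2 overlapped with the controls. None of the 3 was called alone: the log2 fold changes were -0.37, -0.37 and -0.21, with edgeR adjusted p of 0.093, 0.075 and 0.43. The mean of the 3 groups was -0.32 (95% CI -0.54 to -0.098; edgeR adjusted p = 0.047), the 1 member called in that comparison, where 9.11% of genes were called lower. This call is marginal: it was lost in 9 of 12 fits that left out a library, most clearly without empty vector replicate 2 (edgeR adjusted p = 0.20), and with the length slope as a covariate (-0.14, edgeR adjusted p = 0.31). DICER1 holds no match to this seed in its 3′UTR and 4 in its ORF of 5769 bases, and 5 of the 10 members and 14.8% of genes hold such a match in the ORF. The other members with one, TNRC6A (2), TNRC6B, AGO2 and AGO4 (1 each), were not called in that comparison.

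Between the same-seed miRNAs edgeR called 0 members in each of the 3 pairs, where 0% of all genes were called, and 0 members had an unadjusted p under 0.05; DESeq2 was not run on these pairs. Against miR-155 edgeR also called 0 members with miR-302a, miR-372 or miR-373, where 17.3%, 18.8% and 18.1% of genes were called, and 1 member, AGO2 with miR-373, had an unadjusted p under 0.05. The difference in DICER1 between miR-372 and miR-302a was -0.0034 on the log2 scale (95% CI -0.28 to 0.27), and between miR-373 and miR-372 it was 0.16 (95% CI -0.12 to 0.43).

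Of the Microprocessor genes, DGCR8 rose with miR-1 and DROSHA was not called against any empty vector. DROSHA stood at 210 and 220 CPM with miR-1, 189 and 192 CPM with miR-122 and 209 and 197 CPM with the empty vector, with log2 fold changes of 0.082 (edgeR adjusted p = 0.18) and -0.090 (edgeR adjusted p = 0.26). Between the miRNAs themselves it was lower with miR-122 (-0.17, 95% CI -0.26 to -0.081; edgeR adjusted p = 0.0052). With miR-155 it stood at 184, 158 and 183 CPM, below all 3 controls (201, 208 and 202 CPM), with a log2 fold change of -0.22 (95% CI -0.40 to -0.037; edgeR adjusted p = 0.13), which was -0.051 with the length slope as a covariate.

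DGCR8 rose with miR-1, to 106 and 102 CPM from 92.0 and 89.9 CPM. The groups did not overlap, and the controls differed little from each other. The log2 fold change was 0.20 (95% CI 0.10 to 0.29; edgeR adjusted p = 0.0037), called also by DESeq2 (adjusted p = 0.019), and lost without miR-1 replicate 1 (edgeR adjusted p = 0.069). In batch 2 DGCR8 was the steadiest member, with log2 fold changes between -0.075 and 0.013, and its intervals lay between -0.25 and 0.19. Neither DROSHA nor DGCR8 holds a 3′UTR match to any of the 7 miRNAs, in 3′UTRs of 938 and 1764 bases. DGCR8 holds 1 match to miR-1 in its ORF, where 8 of the 10 members and 16.5% of genes hold one. The gene of DGCR8 contains the hairpins MIR1306 and MIR3618 on its own strand, and that of DICER1 contains MIR3173.

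**Figure D4:**
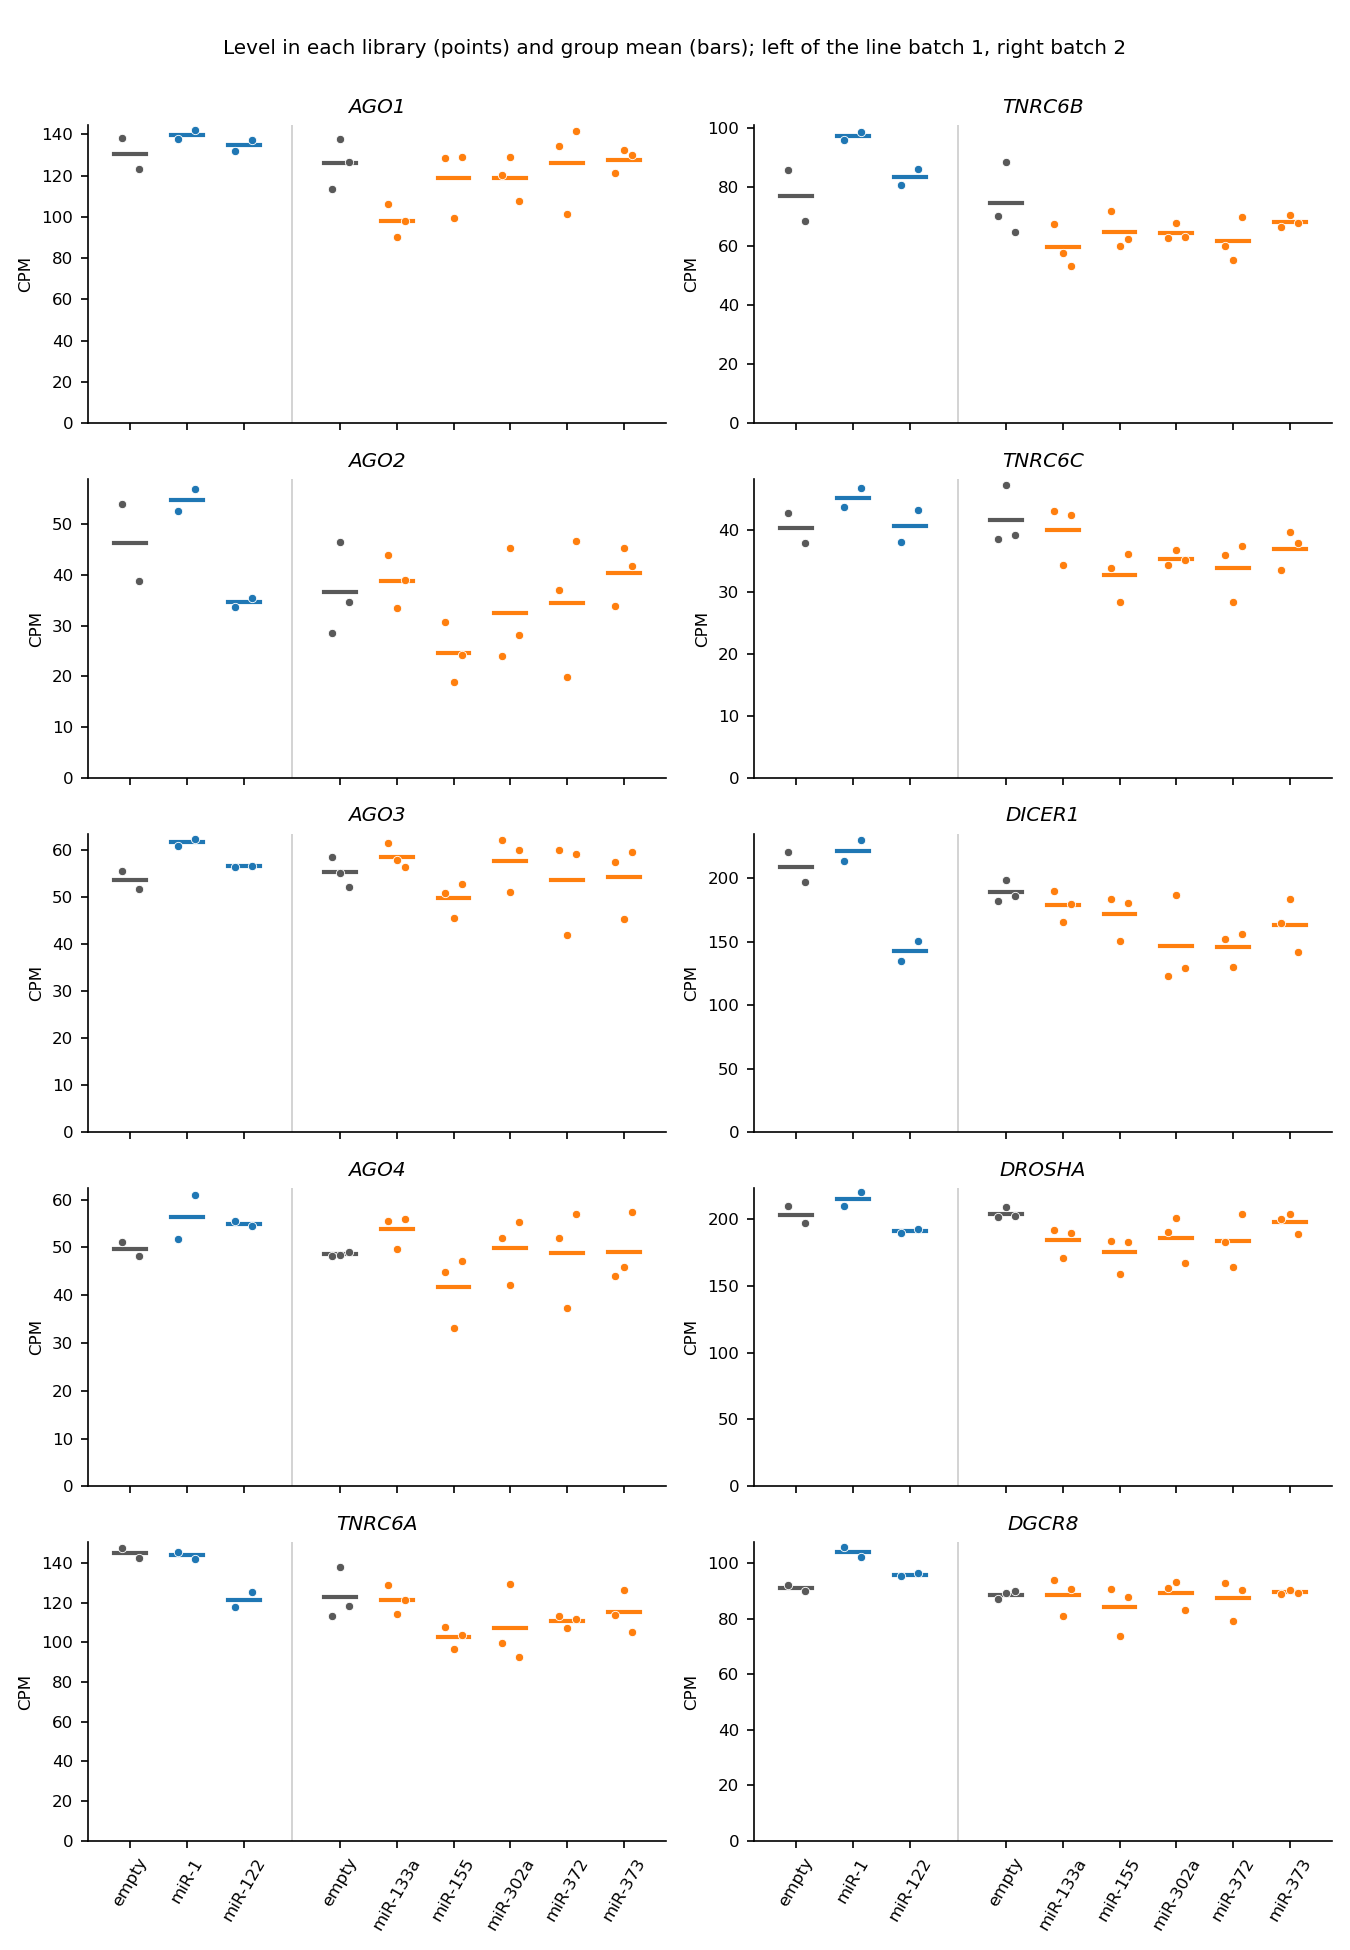
Dots give the CPM of each member in every library and bars the group mean, with batch 1 left of the vertical line and batch 2 right of it, and each y axis starting at 0. DICER1 with miR-122 (135 and 150 CPM) stands apart from its controls (220 and 197 CPM), while the DGCR8 groups of batch 2 lie close together.

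With miR-1, 9 of 10 members had a log2 fold change above 0, with a median of 0.17 against -0.00011 over all genes tested, and 6 had both libraries above both controls (29.7% of genes) against 0 with both below (31.6%). Without empty vector replicate 1, 9 members were called higher with miR-1, where 23.7% of all genes were called, and without replicate 2 of the controls the count was 2, where 22.5% were called. With miR-122 the median was 0.027, with 4 members lower and 3 higher in both libraries than in both controls (23.6% and 24% of genes). In the direct comparison, AGO2, TNRC6A, TNRC6B, DICER1 and DROSHA (5 of 10) were lower with miR-122 than with miR-1, where 31.2% of genes were called. With miR-155 all 10 members had a log2 fold change under 0 (median -0.21 against 0.0057 over all genes), and none was called. With the slope as a covariate, 5 of these 10 values were above 0: AGO1 (0.20), AGO2 (0.092), AGO4 (0.022), DICER1 (0.11) and DGCR8 (0.078). The members together had 944, 750 and 927 CPM by plain library totals in the miR-155 libraries, lowest in replicate 2, the library with the slope of -0.120.

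The members have long 3′UTRs, with a median of 4277.5 bases against 1527 over the genes tested. A site for miR-1 was found in 5 members (24.1% of the genes tested), for miR-122 in 6 (25.7%), while miR-133a (17.2%) and miR-155 (19.2%) had sites in 3 each and the shared seed (30.1%) in 6. Of the 70 pairs of a member and a miRNA, 35 had a site. Among these, 3 were called lower and 2 higher, with a median log2 fold change of -0.036, and among the 35 without a site 0 were called lower and 1 higher, with a median of -0.075. All 3 members called lower with miR-122 held 1 7mer-m8 for it, while the 8mer in AGO1 (0.043) and the sites in AGO3 and TNRC6B went with no call. The match in AGO2 is at base 3439 of an annotated 3′UTR of 11888 bases, most of which was not counted. Whether the AGO2 mRNA of these cells carries it was not tested. An 8mer or 7mer-m8 for miR-122 was held by 5 of the 10 members, against 9.65% of the genes tested. With miR-1, both AGO3 and TNRC6B rose and held sites for it. The pairs share members and controls, and the 6 members with a site for the shared seed enter once for each of its 3 miRNAs. Shares of calls over all genes with and without a site were not computed, and the counts are a description only.

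**Figure D5:**
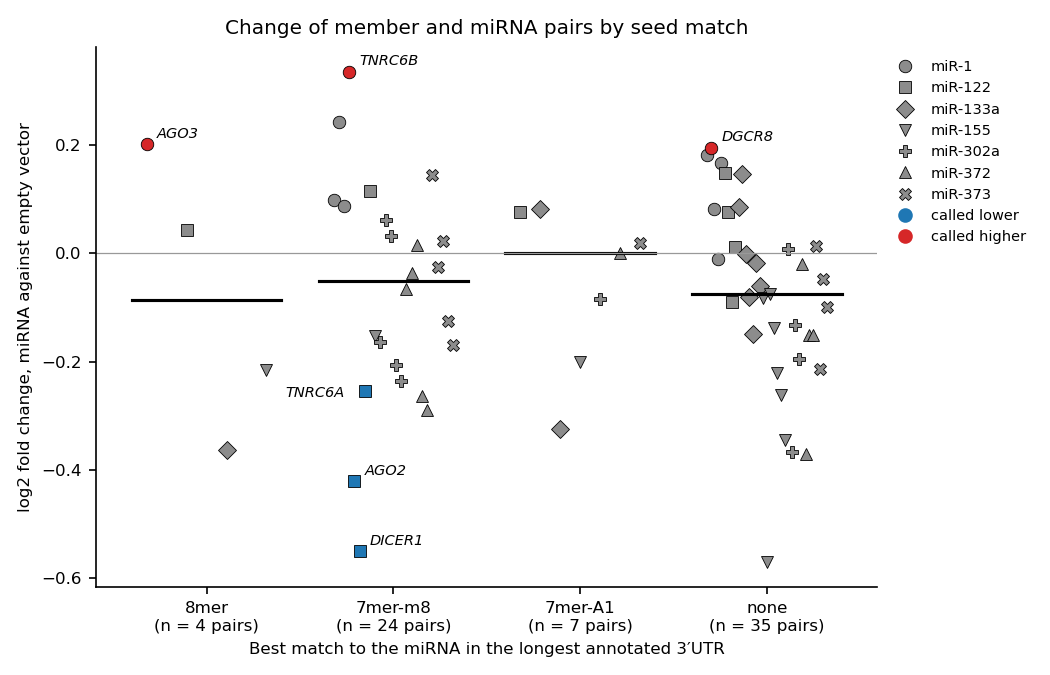
Each symbol is a member and miRNA pair, placed by its best site in the longest annotated 3′UTR and by its log2 fold change against the empty vector, with black bars for the medians. The 3 blue symbols (called lower, all miR-122 and 7mer-m8) are at -0.25, -0.42 and -0.55, the latter 2 below every other symbol of that column, and the red ones (called higher, all miR-1) are spread over the 8mer, 7mer-m8 and no-site columns.

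AGO3 held the most sites of the members, with 8 7mer-A1 matches to miR-122 and 6 7mer-m8 matches to the shared seed. AGO3 was at 0.077 with miR-122 (95% CI -0.037 to 0.19) and at 0.062 with miR-302a, -0.036 with miR-372 and -0.026 with miR-373, none of them called.

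Of 36 other genes of the pathway (hairpin export, Dicer partners, LIN28 and uridylation, RNA helicases, Argonaute chaperones, silencing cofactors), 35 were tested in both batches. Called higher and lower were 7 and 5 with miR-1 (24.5% of all genes in either direction), 1 and 2 with miR-122 (5.92%), 1 and 2 with miR-133a (5.34%), 1 and 2 with miR-155 (7.63%), 1 and 0 with miR-302a (7.88%), 4 and 0 with miR-372 (11.4%) and 1 and 0 with miR-373 (5.13%). Of these genes, 4 were called in at least 2 of these comparisons. LIN28B, which blocks let-7 processing, fell with miR-133a, from a mean of 119 CPM to 54.1 CPM (-1.14, edgeR adjusted p = 1.3e-06), and with miR-155 (-0.44, edgeR adjusted p = 0.016). It rose with miR-1, miR-122 and miR-372 by 0.24, 0.21 and 0.36 on the log2 scale (edgeR adjusted p = 0.0028, 0.022 and 0.037).

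TRIM71, an RNA-binding ubiquitin ligase known as a let-7 target that works with AGO2, rose with all 3 miRNAs of the shared seed. Its mean was 3.23 CPM with the empty vector and 5.26 CPM with miR-302a, 6.65 CPM with miR-372 and 5.58 CPM with miR-373 (log2 fold changes 0.71, 1.05 and 0.79, edgeR adjusted p = 0.011, 0.00027 and 0.0051). It fell with miR-1 (-0.60, edgeR adjusted p = 0.022) and with miR-155 (-0.66, edgeR adjusted p = 0.033), in levels of 2.03 to 3.56 CPM. MOV10, a helicase bound to Argonautes, fell with miR-1 (-0.27, edgeR adjusted p = 0.0012) and miR-133a (-0.48, edgeR adjusted p = 0.047). SND1, a nuclease found with the silencing complex, rose with the same miRNAs, by 0.11 and 0.24 on the log2 scale (edgeR adjusted p = 0.037 and 0.042). Both genes called lower with miR-122, named after their values were seen, were PRKRA, a Dicer partner (-0.57, edgeR adjusted p = 1.4e-06), and GIGYF2, a translational repressor (-0.40, edgeR adjusted p = 0.00063).

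Over all 24 libraries, with each batch centred on its mean, the genes whose log2 CPM followed a member most closely were sought among 10524 genes for the members called against a single miRNA's control. AGO2 was followed by MYCBP2 and BIRC6 (Pearson r 0.955 and 0.954), DICER1 by SHPRH and TEAD1 (0.928 and 0.900), and TNRC6A by KIDINS220 and ENTPD7 (0.923 and 0.912). DGCR8 was followed by RARA and ZNF142 (0.896 and 0.879), AGO3 by SNTB2 and FNBP4 (0.872 and 0.848), and TNRC6B by KMT2C and DYNC1H1 (0.833 and 0.818). Within the members, AGO3 and AGO4 had the highest r (0.811), followed by TNRC6A and DICER1 (0.795), and AGO3 and TNRC6A had an r of 0.0029. These values share depth, library preparation and the length slope, and are given as descriptions with no test.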

How the data were processed

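The deposited tables hold raw read counts per gene, and per the labels and the study's methods the authors clipped adapters with fastx_clipper, aligned directional polyA reads to hg19 with TopHat2 2.1.1 and counted exonic reads per gene by strand with featureCounts at a mapping quality of at least 50. The authors' own edgeR and combined RNA-seq and PRO-seq tables (fold changes, mean log2 CPM, p and q values) were not used. Of the 29794 genes, 28543 matched a symbol. The members and lists were chosen with earlier results of these data known. All 24 libraries were grouped by their labels. Each batch was fitted over all its groups with edgeR 4.0.16 in R 4.3.3 (filterByExpr with a minimum count of 10, TMM, quasi-likelihood test, Benjamini-Hochberg over all genes, threshold 0.05), with 95% intervals from the fitted standard errors. Code for the tests was tested on simulated data. Alternatives were DESeq2 1.42.0, its size factors, a likelihood ratio test, other filters, the replicate number as a block, each library's length slope as a covariate, only the groups compared, and leaving out each library. Replicate pairs differed beyond sampling noise (chi-square per degree of freedom 1.79 to 33.6). Same-numbered libraries of control and miRNA groups did not deviate together in every pair, so the numbers were not treated as pairing them. Between miRNA groups, every r of same-numbered libraries was over 0.1 for miR-133a with miR-155 (0.183 to 0.345) and miR-372 (0.137 to 0.300), miR-155 with miR-302a (0.112 to 0.202) and miR-372 (0.273 to 0.614), and miR-302a with miR-372 (0.161 to 0.336). Other genes were named where called in at least 2 comparisons of a single miRNA. Seed matches were searched in GENCODE v44lift37 3′UTRs on GRCh37. Every CPM rests on 13047400 to 35040778 reads per library. NEFL and PECAM1, both markers, matched no gene and were not analysed here.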

Additional observations from a re-analysis of the deposited data

How the results depend on the processing

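Precision was limited by 2 or 3 libraries per group. The counts of members below stand without the share of all genes called under the same setting. They are a description and do not show whether the members moved more than other genes. The members called with miR-1 (3) were 5 without a filter on low counts, 9 with the length slope as a covariate, 1 with the DESeq2 Wald test, and between 2 and 9 when a library was left out. With miR-122 (3), the count was 5 with the slope (2 lower, 3 higher: AGO1 0.13, AGO4 0.22 and TNRC6B 0.28), 2 with the DESeq2 Wald test and 1 to 4 without a library. For the mean of the shared-seed miRNAs (1), it was 0 with DESeq2 size factors, 2 with the slope, 0 with only the groups compared and 0 to 1 without a library. Comparisons with no call gained some: miR-133a had 2 without a filter, 1 with the slope, 2 with only the groups compared and 2 without the libraries of lowest slope; miR-155 had 2 without a filter; miR-302a had 1 without a filter, 1 without the libraries of lowest slope and 0 to 2 without a library; miR-372 had 1 with the likelihood ratio test, 1 without a filter, 2 with the slope and 1 with only the groups compared; and miR-373 had 1 with the slope. Leaving out the low-slope libraries was chosen after seeing the data, as were the settings for direct comparisons between miRNAs. Of the direct comparisons in batch 2 (2 calls), 6 were called without a filter, 1 with a minimum of 1 CPM, 7 with the slope and 0 to 7 without a library, and for miR-122 against miR-1 (5) it was 3 to 6 without a library. Members with a miR-133a match were 1 instead of 3 without 7mer-A1 sites.

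Among values with an unadjusted p under 0.05 in either fit, the sign turned with the slope as a covariate for AGO1 with miR-155 (0.20), miR-302a (0.16), miR-372 (0.26) and the mean of the shared-seed miRNAs (0.19), and for AGO2 with miR-155 (0.092), miR-302a (0.39), miR-372 (0.49) and that mean (0.45); the cause was not tested. Another 102 values changed sign under an alternative, none called in either fit, and reached at most 0.199 in size under it. Under the replicate block, miR-1 and miR-122 each kept a count of 3 members called. The 5 single miRNAs of batch 2 had 0 and the mean 1. The direct comparisons in batch 2 had 3, the gained one being AGO4 with miR-155 against miR-133a. There 21.7% of all genes were called, against 16.7% without the block. For miR-122 against miR-1 the share was 27.6% with the block and 31.2% without it. The block changed no other direct call of a member. Shares under the block are not given for the comparisons with the empty vector, so an unchanged count does not show that the members were stable.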
